A study of Homo sapiens with 18 samples.

Results

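The comparison of M2 with M0 macrophage medium rests on 6 RNA sequencing libraries, 3 for each medium, out of 18 libraries in 6 groups. All libraries come from LNCaP, an established line of human prostate cancer with a luminal, androgen-responsive programme, labelled WT. The cells were pre-incubated in RPMI with 1% heat-inactivated fetal bovine serum and then kept for 48 h in conditioned medium, the culture fluid of THP-1 macrophages. THP-1 is a human monocytic leukaemia line; its macrophages were either unpolarized (M0) or polarized to the M1 or M2 state, and their fluid was thinned with RPMI that held 10% of the same serum. Control cells received that RPMI without macrophage fluid, and M1 medium was also tested with DMSO or with the NF-kB pathway inhibitor IKK16. Polyadenylated RNA was sequenced in paired reads of 150 bases. The labels number the replicates but do not say whether they came from separate cultures, so p-values measure the spread between these libraries, which may be technical. The M2 against M0 contrast asks what polarization of the macrophages adds to the effect of macrophage fluid as such, since both media share the cells, the dilution and the exposure time.

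When oxygen is ample, EGLN prolyl hydroxylases mark the alpha subunits of hypoxia-inducible factor (HIF) for capture by the VHL complex and destruction. When it is scarce, the alpha subunit persists, pairs with ARNT, binds a short DNA core and raises a well-known set of genes for glucose uptake, glycolysis, mitophagy, collagen hydroxylation and vessel growth. Several of these genes also answer to other inputs, such as androgen in prostate cells. Macrophages polarized towards M2 are commonly associated with IL-4 and IL-13 signalling and with an anti-inflammatory state, whereas M1 macrophages release cytokines that act through NF-kB, STAT and interferon pathways.

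The 6 libraries held between 24598456.5 and 31958443 counts assigned to named genes, so that 3 counts corresponded to 0.0939 to 0.122 CPM, the count scaled to library size. Luminal prostate markers were abundant in every library, with counts for all 12 in each. Over genes with a mean of at least 1 CPM, 2 libraries of the same medium differed by a root mean square of 0.182 to 0.241 on the log2 scale (median 0.2005, 6 pairs). Libraries of different media differed by 0.185 to 0.262 (median 0.2, 9 pairs), so the medians over the pairs were alike. No pair matched within sampling noise, so each library was counted once. The libraries also differed in a trend with transcript length: the Spearman correlation between a gene's deviation from the 6-library mean and its length was -0.407 and -0.384 in the number 1 libraries of M0 and M2, and lay between 0.0449 and 0.362 in the other 4 (12950 genes).

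Of 17073 genes tested with edgeR's quasi-likelihood test, 18 (0.105%) were lower in M2 than in M0 medium at a Benjamini-Hochberg adjusted p under 0.05, and 0 (0%) were higher. The 18 genes were led by hypoxia-response and glycolytic genes, and their fold differences were small, from 1.22 to 1.77. Of these, 10 stood in a list of 40 HIF-induced genes outside glycolysis, and 4 in a list of 21 genes of glucose uptake, glycolysis and lactate export. At an unadjusted p under 0.05, 583 genes (3.41%) were lower and 345 (2.02%) higher. DESeq2 called 43 genes lower and 3 higher. The median log2 fold change was 0, and 8520 genes (49.9%) had an estimate below 0.

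**Figure D1:**
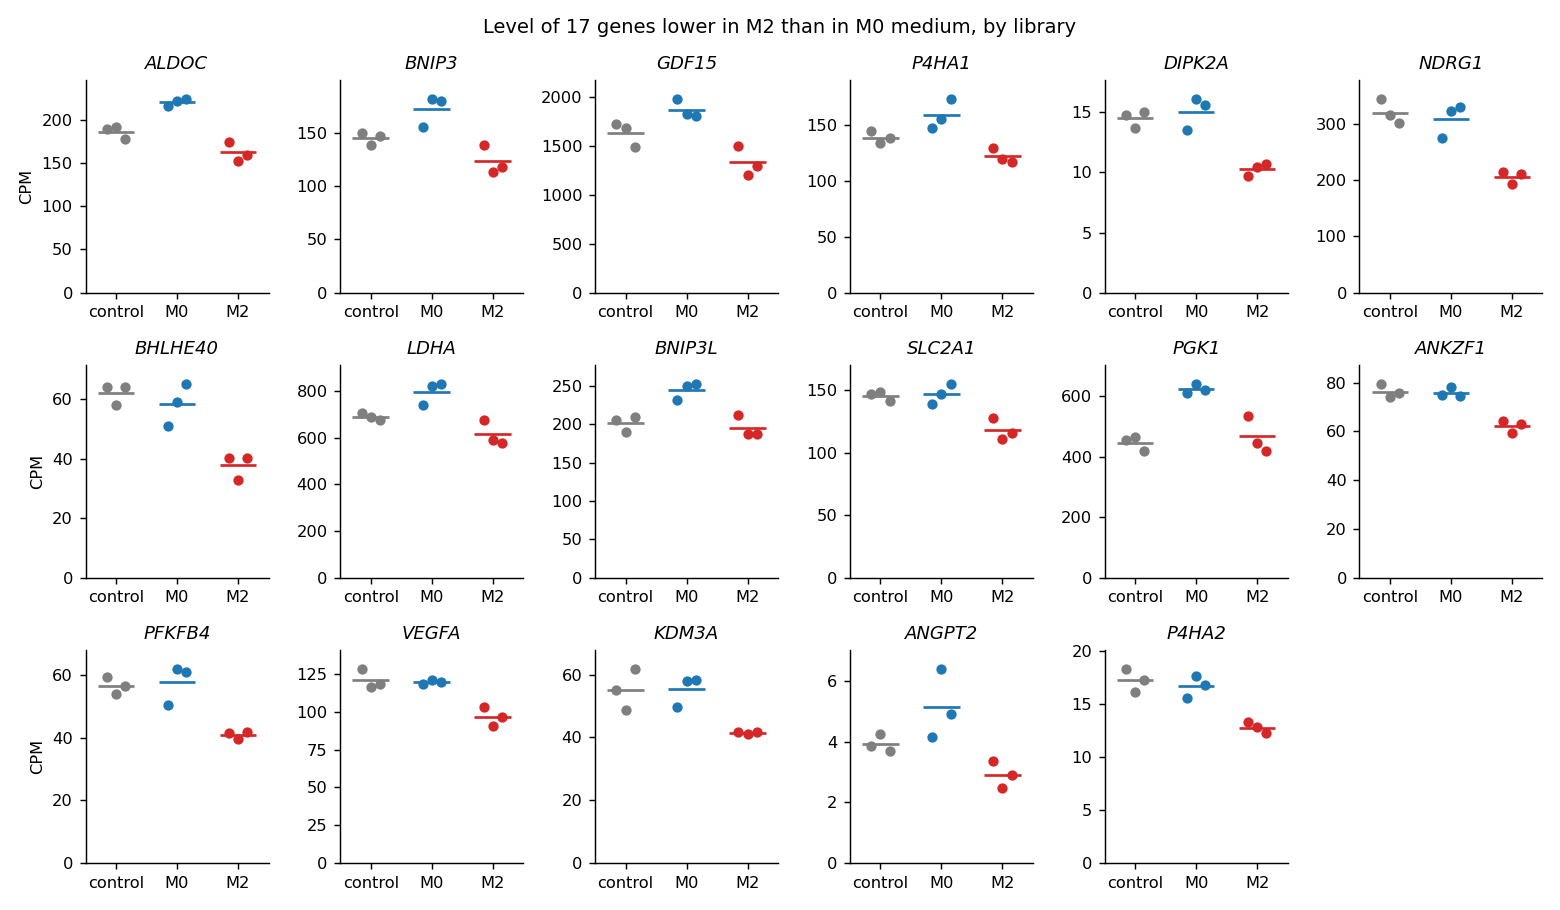
Level in CPM (vertical axes, from 0) of 17 of the 18 genes in the control, M0 and M2 libraries; points are libraries in the order of their number and bars are means of 3. In all 17 panels the 3 M2 libraries lie below the 3 M0 libraries, and the control libraries sit near M0 for some genes (ANKZF1, VEGFA, P4HA2) and near M2 for others (PGK1, BNIP3L).

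The mitophagy receptors were among the clearest. BNIP3, a mitochondrial outer membrane receptor for autophagy (10:131967684-131981923, GRCh38.p14), measured 155, 182 and 180 CPM in the M0 libraries and 138, 113 and 118 CPM in the M2 libraries. All 3 M2 libraries were below all 3 M0 libraries, with the smallest gap between the number 1 libraries. The log2 fold change was -0.48 ± 0.07 (SE, adjusted p = 0.00412 by edgeR). Its paralog BNIP3L had 232, 250 and 252 CPM in M0 and 212, 187 and 188 CPM in M2, a log2 fold change of -0.32 ± 0.06 (adjusted p = 0.0187).

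The collagen prolyl hydroxylase subunits P4HA1 and P4HA2, which modify procollagen in the endoplasmic reticulum, fell together. P4HA1 (10:73007217-73096866) averaged 158 ± 13.1 CPM (SD, n = 3) in M0 and 122 ± 6.72 CPM in M2, and P4HA2 averaged 16.7 ± 1.07 and 12.8 ± 0.539 CPM. Their log2 fold changes were -0.38 ± 0.06 (adjusted p = 0.00679) and -0.38 ± 0.08 (adjusted p = 0.0386). The third alpha subunit, P4HA3, was near the limit of counting at 0.328 CPM in M0 and 0.438 CPM in M2, and its interval was wide (-0.44 to 1.32).

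BHLHE40 and NDRG1 had the largest falls among the called members of the hypoxia list. BHLHE40, a basic helix-loop-helix repressor also known as a clock-output gene, had 51.1, 59.1 and 65.1 CPM in M0 and 40.3, 32.9 and 40.2 CPM in M2. No M2 library reached the lowest M0 library, and the log2 fold change was -0.63 ± 0.11 (adjusted p = 0.0113). NDRG1, a stress- and differentiation-associated gene induced by both HIF and androgen, had 275, 323 and 330 CPM in M0 against 214.5, 193 and 211 CPM in M2, or -0.59 ± 0.10 (adjusted p = 0.0113). KDM3A, a histone H3 lysine demethylase that needs oxygen for its reaction, was nearly constant among the M2 libraries at 41.5 ± 0.384 CPM, against 55.4 ± 4.84 CPM in M0 (-0.42 ± 0.08, adjusted p = 0.0364).

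VEGFA, the main vascular growth factor, had 118, 121 and 120 CPM in M0 and 103.5, 90.7 and 96.9 CPM in M2. The M0 values were tightly grouped and all above M2, and the log2 fold change was -0.30 ± 0.06 (adjusted p = 0.0364). PFKFB4, a bifunctional enzyme that sets the level of fructose 2,6-bisphosphate, averaged 57.6 ± 6.41 CPM in M0 and 40.9 ± 1.18 CPM in M2 (-0.49 ± 0.09, adjusted p = 0.0299). ANKZF1, a factor of ribosome-associated and mitochondrial protein quality control, had the smallest fold of the 18 genes, 75.8 ± 1.99 CPM against 62.2 ± 2.59 CPM (-0.28 ± 0.05, adjusted p = 0.0244).

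Across the hypoxia list, 39 of 40 members had enough counts to be tested. Of these, 10 were called lower and 0 higher, a share of 25.6% against 0.105% over all genes tested, and 34 had an estimate below 0. The median log2 fold change was -0.28, against 0 over all genes tested. In 23 members the M2 libraries were all below the M0 libraries, and in 1, JMJD6, all above; over all genes these shares were 5.67% and 4.33%. The list was chosen with earlier results of these data known, so its count describes the list and is not independent evidence of its direction.

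**Figure D2:**
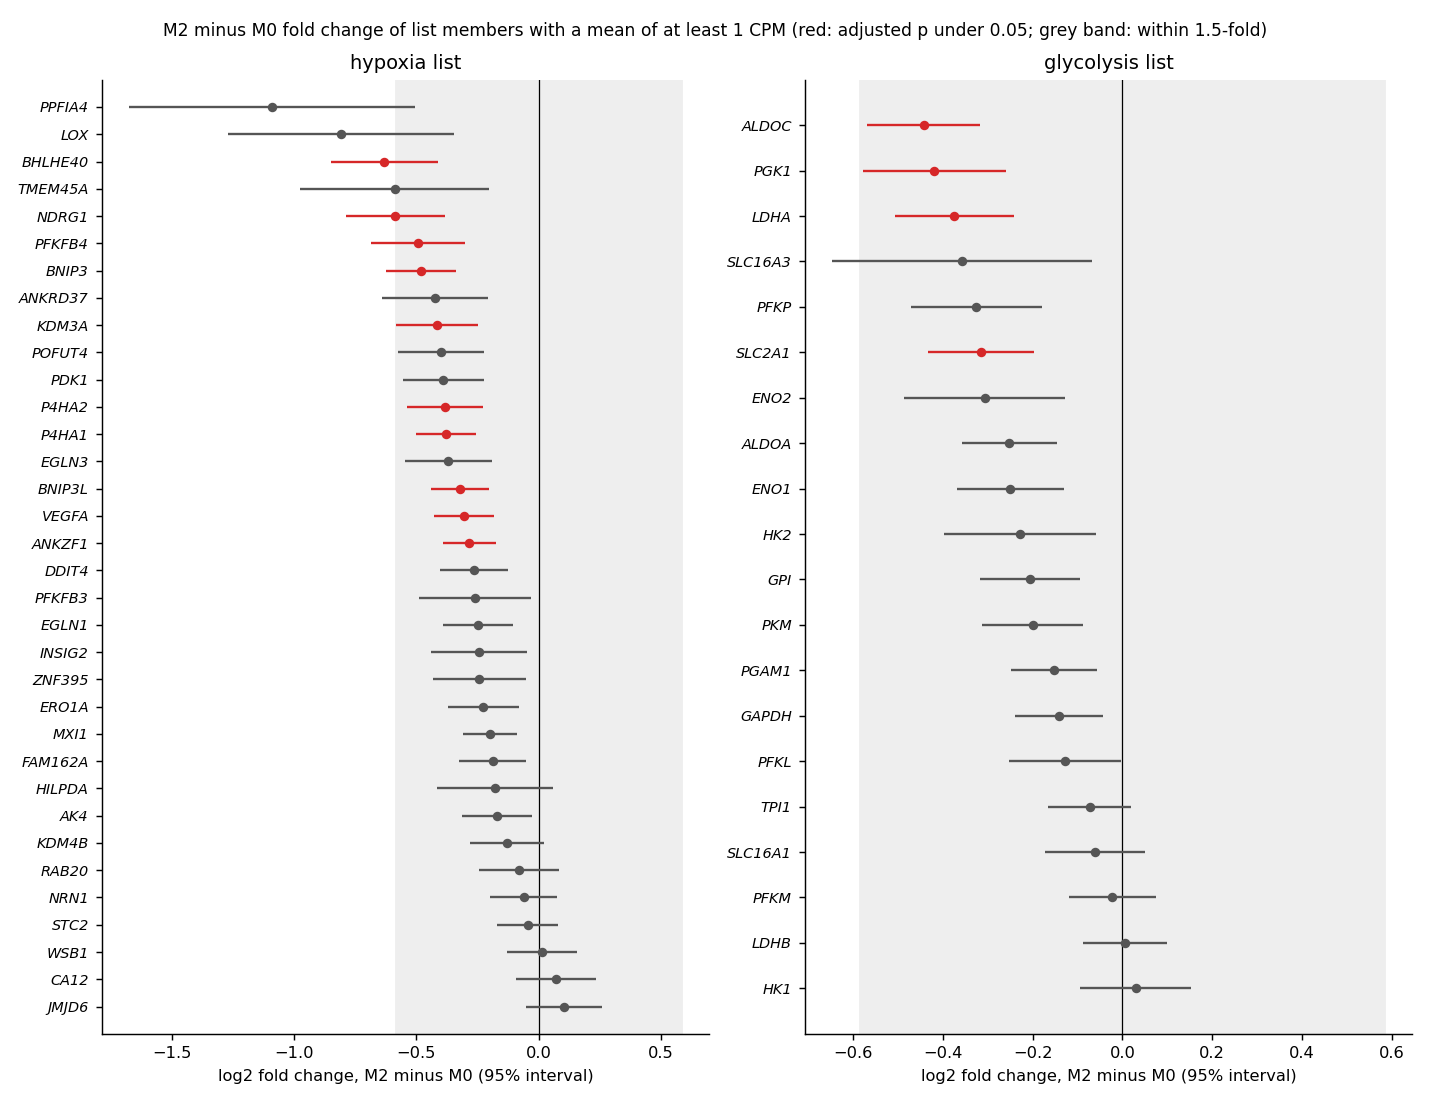
Log2 fold change, M2 minus M0, with its 95% interval (horizontal axes) for the 34 hypoxia-list and 20 glycolysis-list members with a mean of at least 1 CPM over the 6 libraries, red where the adjusted p is under 0.05 and with a grey band for changes within 1.5-fold. Most points lie left of 0 in both panels, from PPFIA4 at -1.09 and ALDOC at -0.44 to JMJD6 at 0.10 and HK1 at 0.03 at the other end.

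The members of the list differed among themselves. Of the members not called, the oxygen sensors EGLN3 (-0.37 ± 0.09, adjusted p = 0.121) and EGLN1 (-0.25 ± 0.07, adjusted p = 0.307) had M2 libraries wholly below M0. The stress gene DDIT4, an inhibitor of mTORC1 signalling, measured 530 ± 33.2 CPM in M0 and 441 ± 37.6 CPM in M2 (-0.26 ± 0.07, adjusted p = 0.231). At the other end of the list the estimates for RAB20, NRN1, CA12, STC2 and WSB1 lay between -0.08 and 0.07 with intervals inside 1.5-fold. CA9, a carbonic anhydrase often used as a hypoxia marker, was barely counted, at 0.271 CPM in M0 and 0.154 CPM in M2, and its interval of -2.17 to 0.72 allows a large change either way. PPFIA4 had the largest estimate of the list, -1.09 ± 0.28 at 3.01 ± 0.872 and 1.43 ± 0.323 CPM, and was not called (adjusted p = 0.233).

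In the glycolysis list, ALDOC, the brain-type aldolase isoform, had the smallest p of all genes. It measured 217, 221.5 and 224 CPM in the M0 libraries, 174.5, 153 and 160 CPM in the M2 libraries, and 189, 192 and 178 CPM in the control libraries. The M0 libraries were all above control and the M2 libraries all below it. The log2 fold change between M2 and M0 was -0.44 ± 0.06 (95% interval -0.57 to -0.32, adjusted p = 0.00369). ALDOC lies at 17:28573120-28576895.

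LDHA, which makes lactate from pyruvate, had 737, 819.5 and 828 CPM in M0 and 676, 588 and 575 CPM in M2. M0 and M2 did not overlap, and the change was -0.37 ± 0.06 (adjusted p = 0.0144). PGK1, which makes the first ATP of glycolysis, fell from 624 ± 14.1 to 467 ± 61.4 CPM, or -0.42 ± 0.08 (adjusted p = 0.0244). SLC2A1, the glucose transporter GLUT1, went from 147 ± 7.71 to 118 ± 8.74 CPM, or -0.31 ± 0.06 (adjusted p = 0.0238).

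All 21 glycolysis genes were tested. Of these, 4 were called lower (19%, against 0.105% over all genes tested) and 0 higher, 19 had an estimate below 0, and the median was -0.23. The M2 libraries were all below M0 in 15 members and all above in 0, against 5.67% and 4.33% over all genes. The muscle-type aldolase ALDOA missed the threshold at -0.25 ± 0.05 (adjusted p = 0.0516), as did ENO1 at -0.25 ± 0.06 (adjusted p = 0.121) and GAPDH at -0.14 ± 0.05 (adjusted p = 0.575). The isoforms of one step differed in estimate: HK2 was at -0.23 ± 0.08 and HK1 at 0.03 ± 0.06, and LDHB was at 0.01 ± 0.05 where LDHA was at -0.37. Whether these isoforms differ from each other in response was not tested.

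The HIF core element was looked for in the promoters of the called genes, because most of them belong to lists of HIF-induced genes. RefSeq promoter entries on GRCh38.p14 were matched by symbol for 12 of the 18 genes, and the 250 bases upstream of the start were searched on both strands for ACGTG, where a palindromic CACGTG is met once on each strand. The motif stood in 6 of 12 windows (50%), against 2952 of 13049 windows of genes tested (22.6%) and 6501 of all 35116 (18.5%). The related core GCGTG stood in 5 of 12 (41.7%), against 43.3% of the windows of genes tested. Either core stood in 8 of 12 (66.7%), against 7192 of 13049 windows of genes tested (55.1%). The windows belong to the start in the RefSeq table, which need not be the start used in these cells, and a match of letters is not a binding site. The 4 windows shown were picked among those holding ACGTG and are those of 2 glycolytic enzymes and 2 other hypoxia-response genes. Each is read 5′ to 3′ towards the gene's start with the ACGTG matches in capitals. ALDOC is at 17:28576896-28577145 on the minus strand, BNIP3 at 10:131981924-131982173 on the minus strand, P4HA1 at 10:73096867-73097116 on the minus strand and LDHA at 11:18394313-18394562 on the plus strand.
ALDOC: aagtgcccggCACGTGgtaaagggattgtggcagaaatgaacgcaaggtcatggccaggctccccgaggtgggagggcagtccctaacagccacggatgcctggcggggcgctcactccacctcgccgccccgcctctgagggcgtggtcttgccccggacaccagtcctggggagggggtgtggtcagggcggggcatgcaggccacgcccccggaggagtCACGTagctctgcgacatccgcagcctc
BNIP3: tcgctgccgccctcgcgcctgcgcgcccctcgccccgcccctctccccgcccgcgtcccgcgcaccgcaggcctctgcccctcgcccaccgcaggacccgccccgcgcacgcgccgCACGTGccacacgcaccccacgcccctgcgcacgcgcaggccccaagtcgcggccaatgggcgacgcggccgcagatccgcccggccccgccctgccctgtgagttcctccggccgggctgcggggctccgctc
P4HA1: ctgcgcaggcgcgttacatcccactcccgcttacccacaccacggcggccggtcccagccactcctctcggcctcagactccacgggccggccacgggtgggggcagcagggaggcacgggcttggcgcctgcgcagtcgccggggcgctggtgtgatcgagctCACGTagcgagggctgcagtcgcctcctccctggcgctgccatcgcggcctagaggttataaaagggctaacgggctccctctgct
LDHA: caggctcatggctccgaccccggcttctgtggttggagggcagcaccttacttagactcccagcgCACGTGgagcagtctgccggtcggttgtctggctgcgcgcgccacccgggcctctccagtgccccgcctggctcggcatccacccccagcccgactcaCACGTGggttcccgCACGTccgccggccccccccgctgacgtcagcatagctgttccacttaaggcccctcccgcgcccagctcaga
LDHA held 3 separate stretches, the nearest beginning 73 bases before the start, and ALDOC held 2, beginning 240 and 28 bases before it. BNIP3 held 1 at 134 bases and P4HA1 held 1 at 86 bases. BHLHE40 and PGK1 were the other called genes with an ACGTG match. GDF15, DIPK2A, SLC2A1, PFKFB4, KDM3A and P4HA2 had no ACGTG in this window, though PFKFB4 and KDM3A each held 1 GCGTG.

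Outside both lists stood 4 called genes, of which 3 are described. GDF15, a secreted TGF-beta superfamily member induced by cellular stress through ATF4 and p53, was abundant at 1975, 1827 and 1799 CPM in M0 and 1501, 1204 and 1294 CPM in M2. Its libraries did not overlap, and the log2 fold change was -0.49 ± 0.07 (adjusted p = 0.00679). DIPK2A, a secreted kinase-like protein, fell from 15.1 ± 1.36 to 10.3 ± 0.508 CPM (-0.55 ± 0.09, adjusted p = 0.0113). ANGPT2, a ligand of the endothelial receptor TIE2, had the largest fold, 1.77, at a low level of 4.15, 6.39 and 4.91 CPM in M0 and 3.37, 2.47 and 2.89 CPM in M2 (-0.82 ± 0.16, adjusted p = 0.0367).

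PGK1 has near-identical pseudogene copies, and how reads shared by such copies were counted is not given in the sources used here, so its value is uncertain to that extent. Several called genes overlap an annotated neighbour, among them BNIP3 with PPP2R2D, ANKZF1 with GLB1L, ANGPT2 with MCPH1 and BHLHE40 with BHLHE40-AS1. The use of strand in counting is not stated, so reads of such pairs cannot be told apart.

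Both media were then placed against control medium, with the same libraries of control cells in both contrasts. Over all genes, M0 medium had 1206 higher (7.06%) and 770 lower (4.51%) genes than control, and M2 medium 911 higher (5.34%) and 575 lower (3.37%). Of the 18 genes, 7 were called higher in M0 than in control (ALDOC, BNIP3, P4HA1, LDHA, BNIP3L and PGK1 among them). Lower in M2 than in control were 12. The 18 genes were picked for M2 below M0 in these same libraries, which favours both counts. The counts therefore describe these genes and are not further evidence. ALDOC and BNIP3 were in both sets: BNIP3 was 0.25 above control in M0 (adjusted p = 0.0254) and -0.23 from it in M2 (adjusted p = 0.0384) on the log2 scale. PGK1 differed from control in M0 by 0.48 (adjusted p = 0.00262) and in M2 by 0.07 (adjusted p = 0.627). BHLHE40 showed the other pattern, -0.09 in M0 (adjusted p = 0.623) and -0.72 in M2 (adjusted p = 0.00083), as did NDRG1 with -0.05 (adjusted p = 0.788) and -0.64 (adjusted p = 0.00116).

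Of 39 tested hypoxia-list members, 7 were higher and 2 lower in M0 than in control (median 0.04). In M2, 15 were lower and 0 higher than in control (median -0.22). Of 21 tested glycolysis-list members, 5 were higher and 0 lower in M0 (median 0.06), and 6 were lower and 0 higher in M2 (median -0.13). Over all genes tested, 7.06% were higher and 4.51% lower in M0, and 5.34% higher and 3.37% lower in M2. By library, the mean deviation of the 34 hypoxia-list members with at least 1 CPM from the 6-library mean was 0.07, 0.17 and 0.22 in M0 and -0.09, -0.23 and -0.14 in M2, with control at 0.10, 0.06 and 0.10. The M0 and M2 libraries did not overlap, and the number 1 libraries of the 2 media were the closest pair. In the glycolysis list the M0 libraries were at 0.05, 0.13 and 0.14 and the M2 libraries at -0.05, -0.16 and -0.10, with 1 control library below 0.

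**Figure D3:**
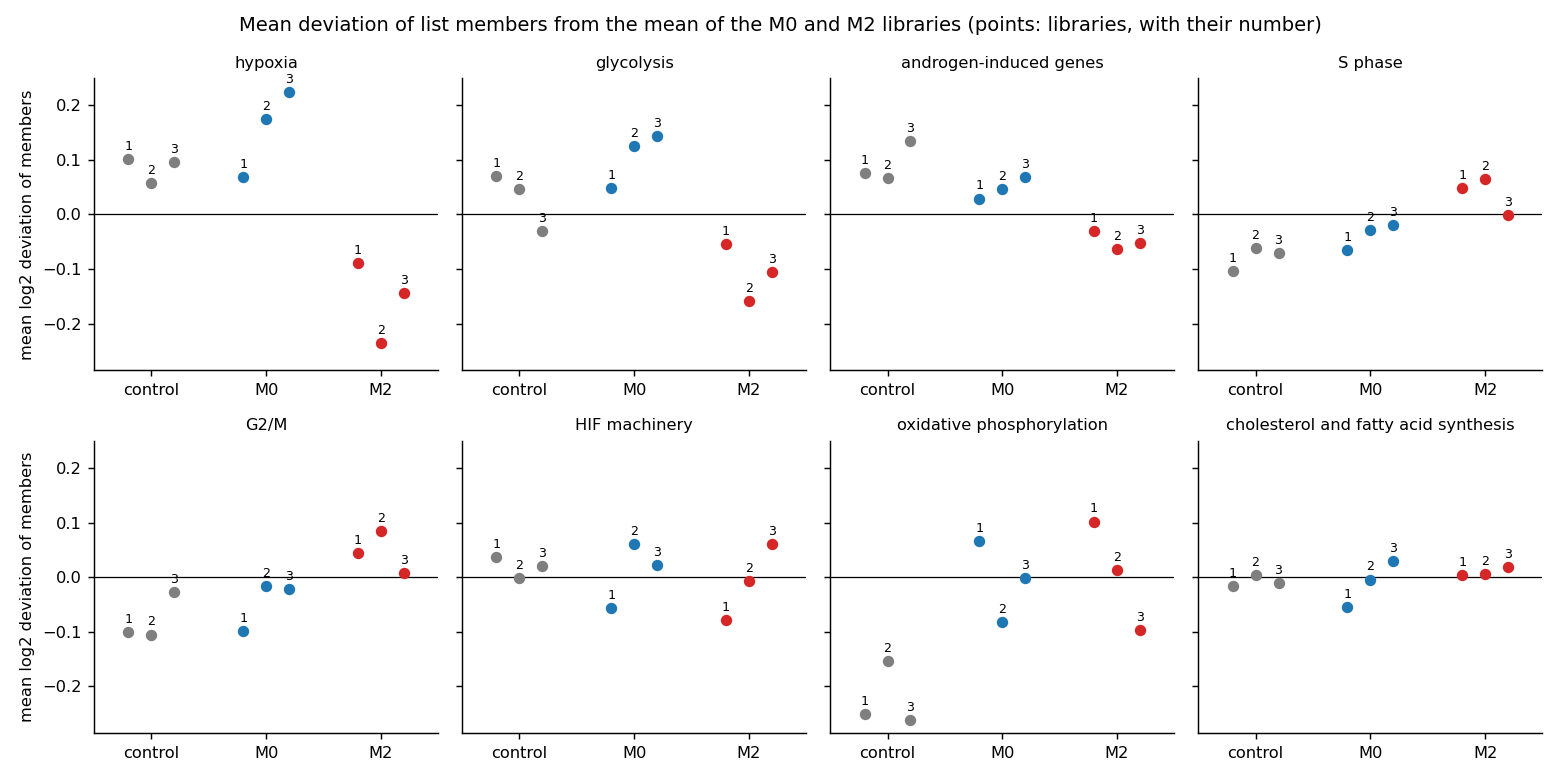
Mean log2 deviation (vertical axes) of members with at least 1 CPM from the mean of the M0 and M2 libraries, for 8 gene lists; each point is 1 library with its replicate number, grey for control, blue for M0 and red for M2. Hypoxia and glycolysis separate M0 from M2 most widely, S phase and G2/M separate them narrowly in the opposite direction, and oxidative phosphorylation and HIF machinery overlap.

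The calls depended on which libraries were in the fit, down to single libraries. With only the M0 and M2 libraries in the fit, 2 genes stayed called lower (ALDOC and NDRG1), and 3 were called higher (RN7SL1, RN7SL2 and RPS29). Without the M2 replicate 2 library or the M2 replicate 3 library 0 genes passed edgeR's test (678 and 909 at an unadjusted p under 0.05), 4 did without M0 replicate 2 and 3 without M0 replicate 3, whereas 35 were called lower without M2 replicate 1. All 18 estimates were below 0 in each of the 17 alternatives, and the median of the hypoxia list stayed between -0.36 and -0.25. In all 18 genes the M2 libraries lay below the M0 libraries. Leaving out libraries could therefore not reverse the sign, and the held direction is not further evidence. Removing the trend with transcript length left 20 genes called lower, 16 of them among the 18.

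The HIF machinery itself gave 0 calls among 15 tested genes with edgeR, while DESeq2 called EGLN3 lower. At an unadjusted p under 0.05 by edgeR, 2 were lower and 0 higher, against 3.41% and 2.02% of all genes. HIF1A, the main oxygen-regulated subunit, measured 151 ± 7.72 CPM in M0 and 147 ± 3.89 CPM in M2, a log2 fold change of -0.04 with a 95% interval of -0.16 to 0.09. VHL was at 129 ± 1.74 and 135 ± 5.54 CPM (0.07, interval -0.02 to 0.16), and its partners ELOB, ELOC, CUL2 and RBX1 had estimates between -0.04 and 0.06. HIF1AN, which hydroxylates an asparagine of HIF alpha, was at 0.16 ± 0.08 (adjusted p = 0.945), and the coactivator gene EP300 had the highest estimate, 0.18 ± 0.14 (adjusted p = 0.996). EPAS1, the HIF-2 alpha subunit, was near 1 CPM in both media, so its interval of -0.59 to 0.28 was wider. Protein levels, through which HIF alpha is mostly regulated, were not measured.

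Most estimates for androgen-induced genes lay slightly below 0. Of 35 tested genes, 1 was called lower, NDRG1, which is also in the hypoxia list, and 0 higher, where 0.105% of all genes were called lower. At an unadjusted p under 0.05, 12 were lower and 0 higher, against 3.41% and 2.02% of all genes, and DESeq2 called ABCC4, NDRG1 and TRPM8 lower. In 30 of 35 the estimate was below 0, against 49.9% over all genes, with a median of -0.07. KLK3, which encodes prostate-specific antigen, measured 3770 ± 202 CPM in M0 and 3252 ± 199 CPM in M2 (-0.21 ± 0.06, adjusted p = 0.385). KLK2 gave -0.26 ± 0.06 (adjusted p = 0.19), TMPRSS2 -0.18 ± 0.05 (adjusted p = 0.341), the calcium channel gene TRPM8 -0.25 ± 0.06 (adjusted p = 0.113) and the transporter gene ABCC4 -0.20 ± 0.05 (adjusted p = 0.134). In all 5 the M2 libraries lay below the M0 libraries. Over the 35 genes tested this held for 11, with M2 wholly above M0 in 0, against 5.67% and 4.33% over all genes. FOLH1 (-0.02, interval -0.10 to 0.07) was bounded within 1.2-fold, and 32 of the 33 targets with at least 1 CPM were bounded within 1.5-fold, the exception being NDRG1. Of 11 tested prostate lineage factors 0 were called by edgeR or DESeq2 (2 lower and 0 higher at an unadjusted p under 0.05), and all 11 were bounded within 1.5-fold.

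Estimates for cell cycle genes lay mostly above 0 by a small amount. All 32 S phase and all 32 G2/M genes were tested and 0 were called by edgeR or DESeq2. At an unadjusted p under 0.05 by edgeR, 4 and 3 were higher and 0 lower, against 2.02% higher and 3.41% lower over all genes. Estimates were above 0 in 29 S phase genes (median 0.07) and 30 G2/M genes (median 0.08), against 8529 of 17073 genes tested. The M2 libraries were all above M0 in 7 S phase and 5 G2/M genes and all below in 0, against 4.33% and 5.67% over all genes. Every one of the 64 intervals lay within 1.5-fold. The replication gene GINS4 measured 40.6 ± 3.36 CPM in M0 and 47 ± 1.02 CPM in M2 (0.21 ± 0.06, adjusted p = 0.423), and the mitotic kinase gene AURKA 33.5 ± 0.662 and 37.5 ± 1.03 CPM (0.16 ± 0.07, adjusted p = 0.79). MCM7 (0.07, interval -0.03 to 0.17) and CDK1 (0.07, interval -0.07 to 0.21) were among the most abundant. By library the G2/M mean was -0.10, -0.02 and -0.02 in M0 and 0.04, 0.08 and 0.01 in M2, so the nearest M0 and M2 libraries were almost level. The list medians stayed between 0.05 and 0.09 for S phase and between 0.07 and 0.11 for G2/M over the 17 alternatives.

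**Figure D4:**
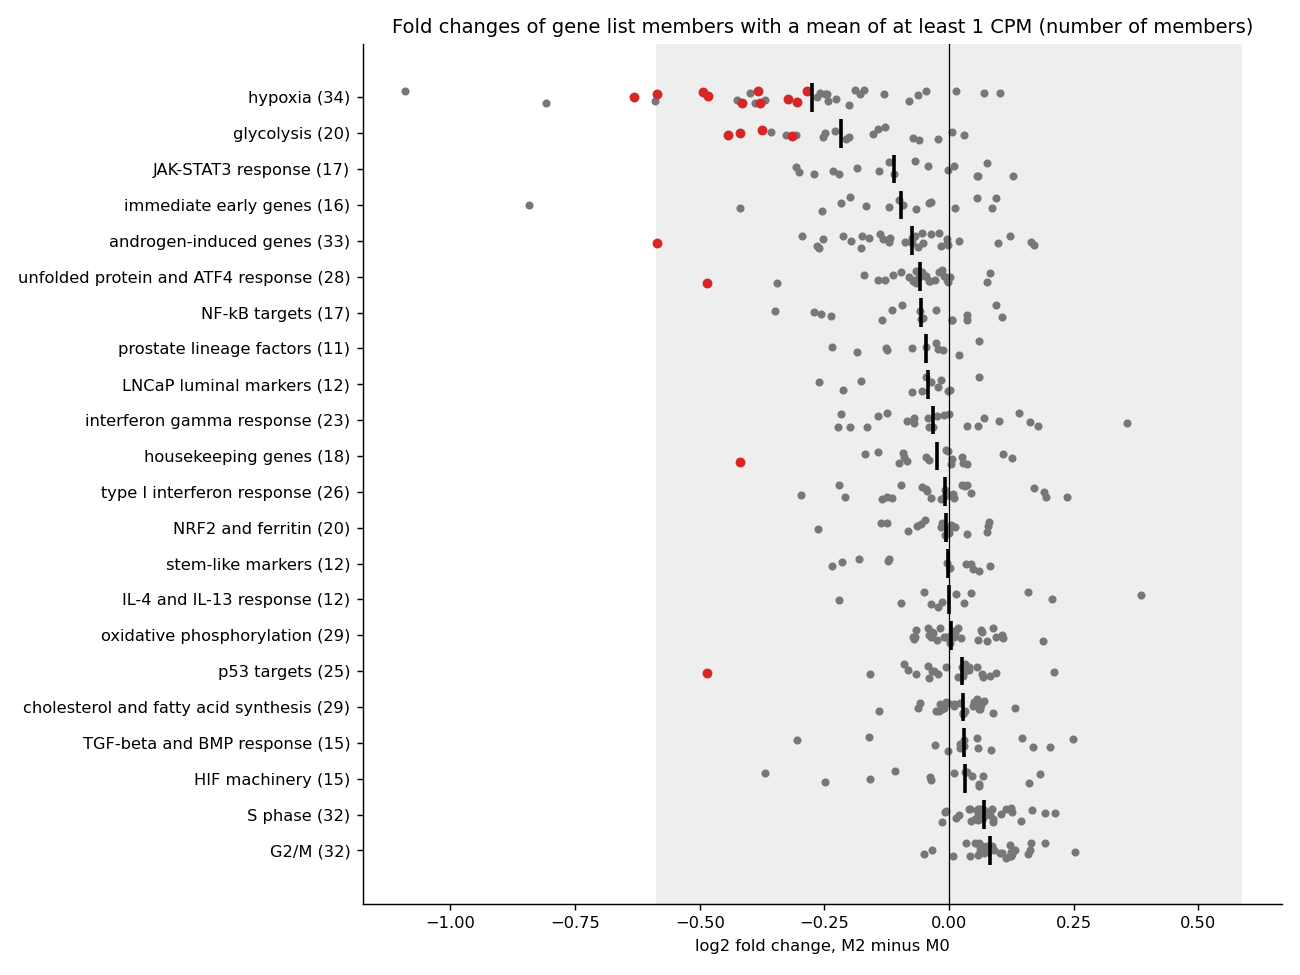
Log2 fold change, M2 minus M0 (horizontal axis), of members with at least 1 CPM for the lists holding 11 or more of them, with the number of members in brackets; points are genes, red where the adjusted p is under 0.05, the black bar is the list's median and the grey band marks 1.5-fold. The hypoxia and glycolysis medians, -0.27 and -0.22 over these members, stand left of the others, and the S phase and G2/M medians, 0.07 and 0.08, stand farthest right.

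Cytokine-response genes, the programmes most often used to tell macrophage states apart, gave 0 calls in M2 against M0 with edgeR in 5 lists, and DESeq2 also called 0 of their members. Of 17 tested IL-4 and IL-13 response genes, 9 estimates were below 0 (median -0.01). At an unadjusted p under 0.05 by edgeR, 1 was lower and 1 higher, against 3.41% and 2.02% of all genes. Of the 12 with at least 1 CPM, 4 were bounded within 1.2-fold and 10 within 1.5-fold. The exceptions to the wider bound were STAT6, with an interval up to 1.14, and CISH, with an interval down to -0.68. IL13RA1, a subunit of the receptor for both cytokines, had 28 ± 0.994 CPM in M0 and 32.3 ± 1.19 CPM in M2 (0.21 ± 0.07, adjusted p = 0.529). MAOA, a monoamine oxidase gene induced by IL-4 in some cell types, was level at 552 ± 14.9 and 547 ± 16.8 CPM (-0.01, interval -0.11 to 0.08). The other 10 list members had too few counts to be tested, and CCL26, POSTN, SERPINB3 and SERPINB4, which mark strong IL-13 responses in epithelia, had totals of 0 to 3 counts per medium. Differences among levels that low were not detectable at this depth.

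NF-kB targets had 0 calls of 24 tested (median -0.08). At an unadjusted p under 0.05 by edgeR, 5 were lower and 0 higher, against 3.41% and 2.02% of all genes. The M2 libraries were all below M0 in 7 members and all above in 0, against 5.67% and 4.33% over all genes. The smallest p belonged to ICAM1, an adhesion molecule gene, which was near the limit of counting at 0.269, 0.0735 and 0.132 CPM in M0 and 0, 0 and 0.0396 CPM in M2 (adjusted p = 0.385). IL32, a cytokine gene, had 6.53 ± 0.331 and 5.07 ± 1.17 CPM (-0.35 ± 0.12, adjusted p = 0.575), with an interval reaching beyond 1.5-fold and libraries that overlapped. Among the most abundant members, the intervals of SOD2 (0.01, interval -0.08 to 0.10) and TNIP1 (-0.09, interval -0.20 to 0.02) lay within 1.2-fold. Type I interferon genes had a median of -0.01 over 33 tested (0 lower and 1 higher at an unadjusted p under 0.05). Interferon gamma genes had a median of -0.04 over 34 tested (3 lower and 1 higher). In the JAK-STAT3 list the median was -0.12 over 19 tested (6 lower and 0 higher, against 3.41% and 2.02% of all genes). Its M2 libraries were all below M0 in 7 members and all above in 0, against 5.67% and 4.33% over all genes. The lowest p of that list belonged to BCL3, an NF-kB coregulator, at -0.27 ± 0.08 (adjusted p = 0.406), followed by CEBPD at -0.30 ± 0.10 (adjusted p = 0.584).

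Immediate early genes, which answer within minutes to growth factors, gave 0 calls of 21 tested with edgeR, while DESeq2 called FOS and DUSP4 lower. At an unadjusted p under 0.05 by edgeR, 6 were lower and 0 higher, against 3.41% and 2.02% of all genes. FOS had 2.71 ± 0.625 CPM in M0 and 1.49 ± 0.523 CPM in M2 (-0.84 ± 0.21, adjusted p = 0.193), and its libraries overlapped. DUSP4, a phosphatase of MAP kinases, had 50.7 ± 0.433 and 42.5 ± 1.89 CPM (-0.25 ± 0.06, adjusted p = 0.193). MYC measured 283 ± 4.78 and 261 ± 10.1 CPM (-0.12, interval -0.22 to -0.02, adjusted p = 0.79).

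The 3 genes named in the series title, NANOG, SOX2 and CD44, gave no difference that could be measured. NANOG had 0 counts in all 6 libraries, and SOX2 had 0 in M0 and 1 in M2. CD44, an adhesion receptor, had 13, 9 and 7 counts in M0 and 13, 6 and 7 in M2, a log2 fold change of -0.24 ± 0.44 (interval -1.15 to 0.67, adjusted p = 0.996). For comparison, CD44 had 146, 143 and 124 counts in the M1 libraries. In the list of 17 tested stem-like markers 0 were called by edgeR or DESeq2, and all 12 with at least 1 CPM were bounded within 1.5-fold. At an unadjusted p under 0.05 by edgeR, 3 of the 17 were lower and 0 higher, against 3.41% and 2.02% of all genes. Their M2 libraries were all below M0 in 4 members and all above in 0, against 5.67% and 4.33% over all genes. Among mesenchymal genes 0 of 12 tested were called by either tool (1 lower and 1 higher at an unadjusted p under 0.05). FN1 was at 440 ± 83.2 and 447 ± 63.3 CPM (0.02, interval -0.19 to 0.23) and VIM at 6.68 ± 1.95 and 5.36 ± 0.496 CPM (-0.32 ± 0.15, adjusted p = 0.887). Among TGF-beta and BMP response genes 0 of 21 were called by either tool (3 lower and 1 higher at an unadjusted p under 0.05, median 0.06).

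Other metabolic and stress programmes were narrowly bounded. All 29 tested genes of cholesterol and fatty acid synthesis and all 29 of oxidative phosphorylation had intervals within 1.5-fold. Their medians were 0.03 and 0.00391, with 0 calls by edgeR or DESeq2. At an unadjusted p under 0.05 by edgeR, 1 was lower and 1 higher in the first list, and 0 lower and 1 higher in the second. Over all genes these shares were 3.41% lower and 2.02% higher. ATP5F1B, a catalytic subunit of ATP synthase, measured 2046 ± 64.9 and 2021 ± 51.7 CPM (-0.02, interval -0.10 to 0.07), and the list's estimates lay between -0.07 and 0.19. Of NRF2 and ferritin genes 20 of 20 were within 1.5-fold, with HMOX1 lowest at -0.26 ± 0.11 (adjusted p = 0.79). In the unfolded protein and ATF4 list 27 of 28 were within 1.5-fold, GDF15 being the exception. In that list 25 of 28 estimates were below 0, against 49.9% over all genes. VLDLR, a lipoprotein receptor gene, had the next smallest p (-0.34 ± 0.07, adjusted p = 0.0516 by edgeR), and DESeq2 called it lower together with GDF15. In the p53 list 24 of 25 were within 1.5-fold, again all but GDF15, with a median of 0.03. Of 18 genes often used for scaling, ACTB was level, at 2045 ± 10.8 and 2043 ± 15.6 CPM (-0.00146, interval -0.07 to 0.07), whereas PGK1 was called lower.

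The data bounded most expressed genes to small changes. The 95% interval lay within 1.2-fold for 8683 genes (50.9%), within 1.5-fold for 13533 (79.3%) and within 2-fold for 15285 (89.5%). The bound depended on level: 99.7% of 8145 genes at 10 to 100 CPM and 99.4% of 2520 genes over 100 CPM were within 1.5-fold, but 73.1% of 3917 genes at 1 to 10 CPM and 1.53% of 2491 genes under 1 CPM. The median SE was 0.0564 over 100 CPM and 0.411 under 1 CPM. Under 1 CPM the interval lay within 2-fold for 32.4% of genes, so for most genes at that level a change of 2-fold was not detectable.

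**Figure D5:**
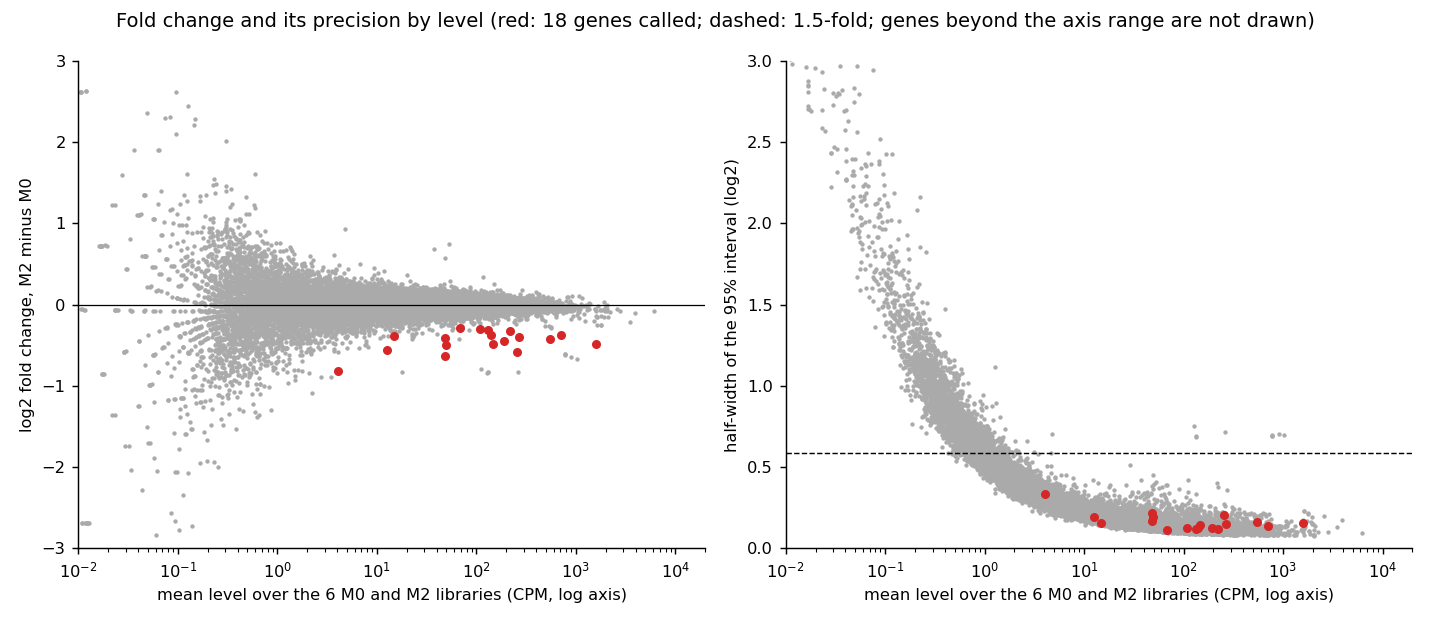
Log2 fold change (left) and half-width of its 95% interval (right) against the mean level in the 6 libraries on a log axis, 1 point per gene tested, with the 18 called genes in red and the dashed line at 1.5-fold; 24 genes on the left and 61 on the right lie beyond the axes. The called genes lie along the lower edge of the cloud, from 4 CPM for ANGPT2 upwards, and the half-width exceeds 1.5-fold mainly below 1 CPM.

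The largest estimates belonged to weakly expressed genes and were not called. Estimates beyond 2-fold numbered 212, of which 0 were called. Among protein-coding genes of at least 1 CPM whose libraries did not overlap, the largest falls were PPFIA4, SCX (-0.96 ± 0.27, adjusted p = 0.304), KISS1R (-0.93 ± 0.32, adjusted p = 0.593) and PLA2G4D (-0.89 ± 0.24, adjusted p = 0.284). The largest rises in estimate were MUC4 (0.71 ± 0.25, adjusted p = 0.596), ETS1 (0.68 ± 0.21, adjusted p = 0.428), CA13 (0.66 ± 0.30, adjusted p = 0.894) and COL3A1 (0.66 ± 0.27, adjusted p = 0.79). Each of these 8 genes had a mean below 4 CPM in both media.

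Summed markers of macrophages and basal cells overlapped between the media, whereas summed luminal and neuroendocrine markers did not and were lower in M2. Of 20 macrophage markers, 7 to 11 had 0 counts in each M0 and M2 library, and their summed level, 234 to 273 CPM in M0 and 245 to 269 CPM in M2, was nearly all CSF1R (250 ± 20.2 and 249 ± 12.3 CPM). Control libraries, which saw no macrophage fluid, held a sum of 228.5 to 232 CPM. TYROBP, ITGAX and FCGR3A had 0 counts in all 6 libraries. CD14 had 13 counts in all M0 and 3 in all M2 libraries, and ITGAM went the other way with 2 and 15. Of 9 tested macrophage markers, 4 had an estimate below 0 and 5 above, and 0 were called by edgeR or DESeq2. Summed basal markers were at 16.4 to 21.5 CPM in M0 and 16.6 to 21.1 CPM in M2, with KRT5 at 0 counts. Summed neuroendocrine markers were at 55.4 to 61.3 and 49.1 to 51 CPM. ENO2, which is also a glycolytic enzyme, made up most of that sum (39.9 and 32.3 CPM), while INSM1 had 1 count in M0 and 0 in M2. Of 5 tested neuroendocrine markers, 4 had an estimate below 0 and 1 above, from SYP at -0.46 to NCAM1 at 0.46. None was called by edgeR or DESeq2. At an unadjusted p under 0.05 by edgeR, 2 were lower and 0 higher, against 3.41% and 2.02% of all genes. Summed luminal markers were at 9292 to 9631 CPM in M0 and 8379 to 8844 CPM in M2, of which KLK3 averaged 3770 and 3252 CPM. The part of these markers in the results was not tested. In bulk RNA, a change in the share of cells that express a gene and a change in its level per cell cannot be told apart.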

How the data were processed

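Per the submitters' processing notes, reads were handled with Trimmomatic, BWA 0.7.17 and HOMER 4.10 on the human build hg38; which tool did which step is not given in the sources used here. The values are expected counts: the authors deposited estimated counts per RefSeq transcript in steps of 0.5 for 70507 transcripts. Values ending in 0.5 were rounded up, and 1 transcript per gene, that with the highest total count, was kept (28100 genes). Symbols came from RefSeq (GRCh38.p14) for 69830 transcripts and GENCODE for 343; the other 334 held 0.0883 to 0.109% of counts and were left out. All 18 libraries were fitted with 1 mean per group in edgeR 4.0.16 (R 4.3.3; TMM scaling, filterByExpr, quasi-likelihood test, Benjamini-Hochberg adjustment over 17073 genes). Intervals are 95%, from the estimate, its SE and the total residual degrees of freedom. CPM values are counts scaled to library size, computed here. DESeq2 1.42.0, other scalings, filters, transcript choices, sample sets, a replicate block and leaving out each library were tried as alternatives.

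Genes were named by rule: every called gene, up to 3 members of each list with the smallest p and up to 2 of the most abundant, the 4 largest estimates each way among protein-coding genes of at least 1 CPM without overlap, and NANOG, SOX2 and CD44. Some items named by this rule are not reported here. Further names were chosen after their values were seen. The comparison, the lists and the tests were chosen with earlier results of these data known.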

Additional observations from a re-analysis of the deposited data

How the results depend on the processing

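The number of calls moved between the 17 alternatives, while medians of the hypoxia and glycolysis lists stayed below 0. The direction of all 18 called genes held. Their M0 and M2 libraries did not overlap, so leaving out libraries could not have reversed it. Against 18 lower, 0 higher, 10 hypoxia and 4 glycolysis calls, DESeq2 gave 43, 3, 14 and 7, and no filter on low counts gave 38, 4, 15 and 7. The M0 and M2 libraries alone gave 2, 3, 1 and 1, and control, M0 and M2 libraries gave 2, 0, 1 and 1; the cause was not tested, though both fits hold fewer libraries. Leaving out 1 library gave 0 to 35 genes lower and 0 to 1 higher, 0 to 13 hypoxia and 0 to 6 glycolysis calls, with 0 lower only without M2 replicate 2 or M2 replicate 3. Leaving out the number 1 libraries of both media, an alternative chosen after seeing the data, gave 31 lower, 0 higher and 7 glycolysis calls. The number of genes bounded within 1.5-fold stayed between 12765 and 13629. With 0 counts in M0 and 2 in M2, the S100A8 log2 fold change was 2.62, from 0 without M2 replicate 2 to 3.17 without M2 replicate 1.

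With a replicate block, 16 genes were lower and 0 higher, 8 of the hypoxia list and 4 of the glycolysis list; 15 of the 18 genes kept their call, and ANGPT2, P4HA2 and VEGFA lost it. Same-numbered M0 and M2 libraries deviated together at correlations of 0.379, 0.0565 and 0.0287. M0 replicate 2 matched M2 replicate 3 better, at 0.315, than its own number. The number 1 libraries had the highest correlation and a like trend with transcript length (-0.407 and -0.384). With 3 libraries per medium, these values cannot tell whether the numbers pair the libraries. Depth limits genes under 1 CPM, of which 32.4% were bounded within 2-fold.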

Other observations

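Some genes outside the lists, chosen after their values were seen, also stood apart. COXFA4L2, known earlier as NDUFA4L2 and as a HIF-induced mitochondrial protein, had 125, 159 and 142 CPM in M0 and 101, 64.7 and 80.6 CPM in M2 (-0.79 ± 0.20, adjusted p = 0.231 by edgeR). PLOD2, a collagen lysyl hydroxylase, had 17.2, 24.7 and 26.5 CPM in M0 and 13, 11.5 and 14.1 CPM in M2 (-0.83 ± 0.18, adjusted p = 0.0893). PDK1, which restrains the entry of pyruvate into mitochondria and is in the hypoxia list, missed the threshold at -0.39 ± 0.08 (adjusted p = 0.0516). The libraries of all 3 genes did not overlap.

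The 7SL RNAs RN7SL1 and RN7SL2, the RNA core of the signal recognition particle, were higher in each M2 library than in each M0 library, without a call. RN7SL1 had 27.3, 28.7 and 29.2 CPM in M0 and 41.3, 46.5 and 50 CPM in M2 (0.69 ± 0.20, adjusted p = 0.385 by edgeR). RN7SL2 had 35.6, 42.5 and 39.8 CPM in M0 and 57.6, 68.5 and 71.3 CPM in M2 (0.74 ± 0.20, adjusted p = 0.267). RPS29, a ribosomal protein gene whose annotated span holds RN7SL1, had 39.3 ± 0.738 and 58.4 ± 2.82 CPM (0.57 ± 0.18, adjusted p = 0.447). All 3 were called higher in M2 than in control (adjusted p = 0.00753, 0.00991 and 0.00574) and when only the M0 and M2 libraries were fitted.

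The ribosomal RNA RNA28SN5, whose near-identical copies share reads, was listed at 1153, 1043 and 1613 CPM in M0 and 1200, 304.8 and 891.1 CPM in M2, so the M2 replicate 2 library stood lowest. PRSS12 had the smallest p of any gene higher in M2 (adjusted p = 0.0717 by edgeR), but at 0.011 and 0.259 CPM it was at the limit of counting.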
